A study of Mus musculus with 3 samples.

Results

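The genes described here are 34 genes of smooth muscle and pericytes, read in 3 bulk RNA-seq libraries of lymphatic endothelial cells from the mouse large intestine. The members were taken by symbol from a list of contractile, cytoskeletal and mural cell genes. All 34 were found among the 24091 genes of each library's table, with the same symbol in RefSeq. The libraries form 1 group, called replicates 1, 2 and 3. Per the labels, the mice were of the C57BL/6 strain and the tissue was the large intestine. Cells of digested gut had been collected by sorting on lymphatic surface markers that included CD31, podoplanin and LYVE1. The labels give no treatment, genotype, age or sex. Separate animals or preparations are not named in them, so the SDs below may measure technical spread alone. Levels are in TPM, a length-corrected abundance within a library, and are given as mean ± SD over the 3 libraries (n = 3).

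Smooth muscle cells contract when calcium switches on myosin light chain kinase, which lets myosin filaments pull on actin filaments anchored at dense bodies. Pericytes are mural cells that wrap small blood vessels and share part of this equipment. In the gut wall, smooth muscle forms the muscle coats and the coat of blood vessels, and collecting lymphatic vessels carry a muscle coat that lymphatic capillaries lack. The title of the series names both capillaries and collectors, which the libraries do not separate. The sort was for endothelial cells, so genes of muscle and pericytes are not those of the labelled cell type.

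All 10 lymphatic endothelial marker genes examined stood at 1 TPM or higher throughout, and their sums were 1660, 1739 and 959 TPM in replicates 1, 2 and 3. The 10 epithelial markers summed to between 17318 and 22155 TPM. Replicate 3 stood apart: 9 of the 10 lymphatic genes were lowest there, and all 12 fibroblast genes and all 8 macrophage genes were highest there. The level of the median member, the list differences and the count of 2-fold ranges are therefore also given without replicate 3. So are the ratios of Actg2 to Acta2 and of Kcnj8 to Abcc9. Means of single genes include replicate 3. The tables hold no read counts. Regular steps were fitted to low values of genes with a single transcript. These steps put 1 TPM on 1000 bases at roughly 32.5 fragments in replicate 1, 28.3 in replicate 2 and 26.1 in replicate 3.

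Many smooth muscle genes are switched on by serum response factor, SRF, together with its co-activator myocardin, at a DNA element called the CArG box. Shown here are promoter windows of Myl9 and Ldb3, which hold a CArG box, and of Acta2, which holds near matches to it. Acta2 and Myl9 behaved alike between libraries, with 3.40-fold and 2.85-fold ranges, and Ldb3 varied less, with a 1.28-fold range. A link of these sites to the levels was not tested. Each window runs from 250 bases before an annotated RefSeq start to 50 bases after it (assembly GRCm38.p6). This start is not always the outermost start of the gene. For Acta2, Myl9 and Ldb3 it lies inside the gene, and the positions below are counted from it. The strand shown is that of the gene, and capitals mark a CArG box or a match that departs from it at 1 base of its A/T middle.
Acta2, chr19:34255324-34255623, minus strand: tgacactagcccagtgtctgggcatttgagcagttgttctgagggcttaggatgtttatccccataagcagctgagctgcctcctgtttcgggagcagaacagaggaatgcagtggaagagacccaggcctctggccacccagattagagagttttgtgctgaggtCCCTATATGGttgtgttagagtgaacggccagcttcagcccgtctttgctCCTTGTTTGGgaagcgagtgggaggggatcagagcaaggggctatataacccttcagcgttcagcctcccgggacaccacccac
Myl9, chr2:156775214-156775513, plus strand: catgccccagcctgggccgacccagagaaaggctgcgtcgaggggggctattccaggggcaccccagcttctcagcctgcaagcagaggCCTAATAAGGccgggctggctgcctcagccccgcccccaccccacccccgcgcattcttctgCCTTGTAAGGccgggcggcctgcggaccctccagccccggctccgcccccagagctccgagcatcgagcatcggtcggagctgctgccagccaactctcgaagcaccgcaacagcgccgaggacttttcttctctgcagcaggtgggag
Ldb3, chr14:34588632-34588931, minus strand: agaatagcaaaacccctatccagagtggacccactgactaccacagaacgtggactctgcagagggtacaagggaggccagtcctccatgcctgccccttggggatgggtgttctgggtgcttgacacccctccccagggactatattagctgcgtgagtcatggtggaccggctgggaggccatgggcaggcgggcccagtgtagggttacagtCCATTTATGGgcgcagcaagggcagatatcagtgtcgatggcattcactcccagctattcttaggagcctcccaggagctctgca

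Counted with the start base as 0, the 2 near matches of Acta2 begin at -84 and -34, the box of Myl9 at -161 with a near match at -99, and the box of Ldb3 at -35. Ldb3 has another annotated start, whose window (chr14:34588558-34588857) holds the same box at -109. RefSeq windows were at hand for 28 of the 34 members. Actg2, Tagln, Myh11, Myocd, Higd1b and Pdgfrb had none, so these genes were not searched and the shares below do not cover them. A full CArG box, whose pattern is the same on both strands, was found for 2 of these 28 (7.14%), against 1.81% of the 27025 genes with a window. A full box or a near match was found for 5 of 28 (17.9%), against 11.3% of all genes, the other two being Pdlim3 and Synm. These matches describe the letters of the windows and are not evidence of binding.

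The contractile filaments came first. Acta2 (chromosome 19, 34240336 to 34255585), the smooth muscle alpha actin of vessels and other muscle, measured 52.8, 31.5 and 107 TPM in replicates 1, 2 and 3, a mean of 63.8 ± 39.0. Actg2 (chromosome 6, 83512909 to 83536251), the gamma actin typical of gut muscle, measured 36.4, 27.8 and 47.0 TPM, with a mean of 37.1 ± 9.61. Both actins were highest in replicate 3 and lowest in replicate 2, but the range of Acta2 was 3.40-fold and that of Actg2 1.69-fold.

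The ratio of Actg2 to Acta2 was therefore not constant. It was 0.689, 0.884 and 0.439 in replicates 1, 2 and 3, a mean of 0.671 ± 0.223, and 0.786 without replicate 3. Their longest transcripts share no stretch of 50 bases with each other, and 0.352% of such stretches of Acta2 and none of Actg2 occur in transcripts of another gene. Both muscle actins were small beside the cytoplasmic actins that all cells use. Actb stood at 1291 ± 24.9 and Actg1 at 1485 ± 76.7 TPM, so that this pair made up 96.2 ± 1.47% of the TPM of the 6 actin genes. Acta2 made up 1.91%, 1.08% and 3.6% of it.

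Myh11 (chromosome 16, 14194527 to 14292188), the smooth muscle myosin heavy chain, measured 17.7, 14.6 and 42.9 TPM (25.1 ± 15.5). It made up 18.1%, 11.1% and 27.0% of the summed TPM of Myh11 and the non-muscle heavy chains Myh9 and Myh10. The myosin regulatory light chain gene Myl9 measured 79.5, 46.3 and 132 TPM (85.9 ± 43.2). Replicate 3 was high for both myosin genes and replicates 1 and 2 lay below it, with replicate 2 lowest.

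Of the tropomyosins, which lie along actin filaments, Tpm1 was the most abundant of all 34 members at 270.9, 290.2 and 338 TPM (299.8 ± 34.7). Its lowest library lay above the highest library of every other member. Tpm2, the form more tied to muscle, measured 28.2, 19.5 and 41.4 TPM (29.7 ± 11.1). Tpm1 varied 1.25-fold between libraries and Tpm2 2.13-fold.

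**Figure D1:**
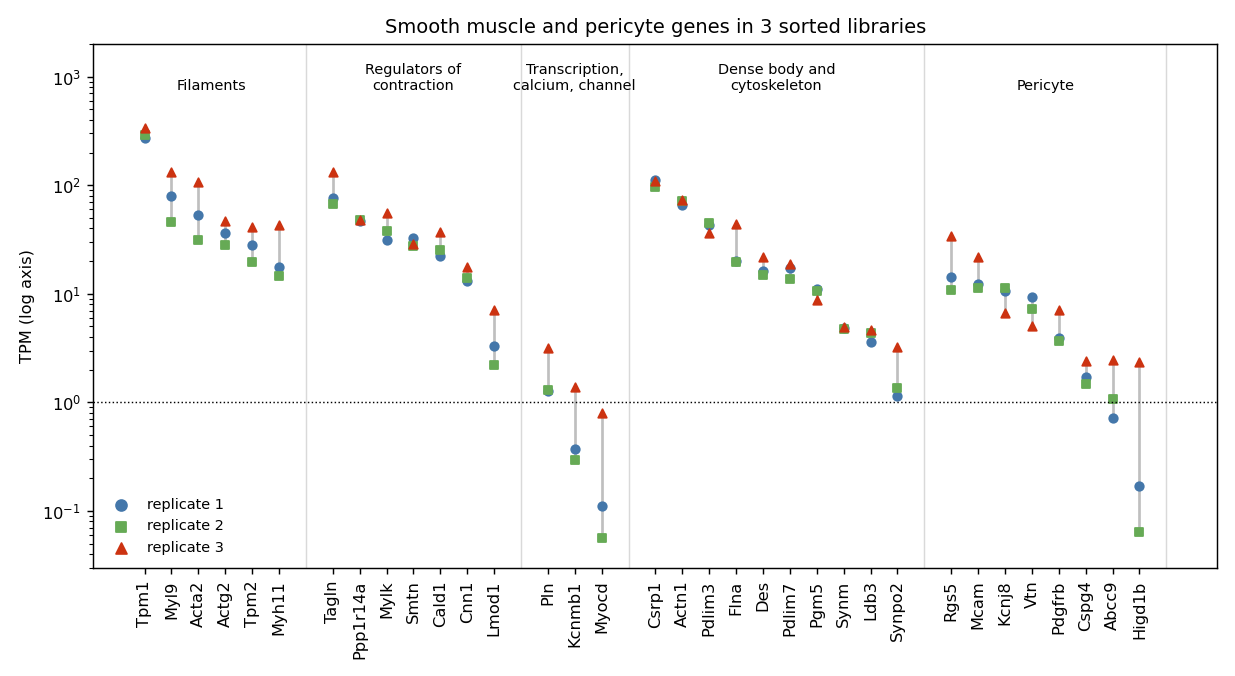
TPM of each of the 34 genes on a log axis, grouped by role and ordered by mean, with 1 point per library, a grey bar from the lowest to the highest library and a dotted line at 1 TPM. Replicate 3 (triangles) is the highest point for 28 genes, Kcnj8, Vtn, Pdlim3 and Pgm5 are lowest there, and Myocd stays below 1 TPM in all libraries.

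Among genes that regulate contraction, Tagln (chromosome 9, 45929628 to 45936058), the actin-binding protein SM22 alpha, was the highest at 76.3, 67.7 and 133 TPM (92.5 ± 35.8). Mylk, the myosin light chain kinase, measured 31.5, 38 and 56.0 TPM (41.8 ± 12.7). Cald1, the actin-binding protein caldesmon, measured 22.3, 25.1 and 36.9 TPM (28.1 ± 7.72). For these 3 genes replicate 3 was the highest library.

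Ppp1r14a, which encodes the myosin phosphatase inhibitor CPI-17, was almost level at 47.3, 48.0 and 48.3 TPM. Smtn, smoothelin, was level too, with 32.4, 27.8 and 29.0 TPM. Cnn1, the actin-binding protein calponin, measured 13.0, 14.0 and 17.8 TPM, a 1.37-fold range. Lmod1, the leiomodin that nucleates actin filaments in smooth muscle, was low at 3.33, 2.22 and 7.13 TPM, with a 3.21-fold range. The regulators thus included both the steadiest member, Ppp1r14a with a 1.02-fold range, and a member that varied over 3-fold.

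The co-activator, calcium and channel genes were the lowest group. Myocd, the myocardin that works with SRF, measured 0.110, 0.0567 and 0.790 TPM, which at the length of its longest transcript corresponds to an estimated 18, 8 and 102 fragments. Kcnmb1, the beta subunit of the calcium-activated potassium channel of smooth muscle, measured 0.369, 0.297 and 1.40 TPM, or an estimated 48, 34 and 146 fragments. Pln, phospholamban, which restrains the calcium pump of the sarcoplasmic reticulum, measured 1.27, 1.31 and 3.16 TPM. In all 3 genes replicate 3 was the high library, and replicates 1 and 2 lay far closer to each other than to it.

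Genes of dense bodies and the cytoskeleton held most of the steady members. Csrp1, a LIM-domain protein, measured 110.6, 96.1 and 109.6 TPM, and Actn1, an alpha-actinin, 66, 71.6 and 72.5 TPM. Pdlim3, a partner of alpha-actinin, measured 43.4, 45 and 36 TPM, Pgm5, a protein of adhesion plaques, 11.1, 10.6 and 8.82 TPM, and Synm, the intermediate filament protein synemin, 4.81, 4.74 and 4.90 TPM. Pdlim3 and Pgm5 were lowest in replicate 3, unlike the filament genes. Ldb3 and Pdlim7, which carry PDZ and LIM domains as Pdlim3 does, ranged from 3.61 to 4.63 TPM and from 13.8 to 19.0 TPM.

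Des, desmin, the muscle intermediate filament, measured 16.1, 14.9 and 21.7 TPM (17.6 ± 3.66), a 1.46-fold range. Flna, filamin A, an actin cross-linker found in many cell types, measured 20.2, 19.5 and 43.7 TPM. Synpo2, an actin-bundling protein of muscle, measured 1.15, 1.36 and 3.21 TPM. Flna and Synpo2 were the members of this group in which replicate 3 lay more than 2-fold above the mean of the other libraries.

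Pericyte genes were led by Rgs5 (chromosome 1, 169655501 to 169695813), a regulator of G protein signalling, at 14.2, 10.9 and 34 TPM (19.7 ± 12.5). Mcam, the adhesion molecule CD146 that endothelial cells also carry, measured 12.3, 11.3 and 21.6 TPM (15.1 ± 5.70). Pdgfrb, the receptor through which PDGF-B recruits mural cells, measured 3.93, 3.64 and 7.10 TPM (4.89 ± 1.92). For all 3, replicates 1 and 2 lay close together and replicate 3 lay above both.

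Cspg4, the proteoglycan NG2, was lower at 1.71, 1.47 and 2.38 TPM. Higd1b measured 0.171, 0.0644 and 2.33 TPM, or an estimated 3, 1 and 33 fragments, so no fold is given for it. Vtn, the matrix and plasma protein vitronectin, went the other way, at 9.29, 7.26 and 5.03 TPM in replicates 1, 2 and 3.

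Kcnj8 (chromosome 6, 142564837 to 142571614) and Abcc9 (chromosome 6, 142587862 to 142702766) encode the pore and the sulfonylurea receptor subunit of one ATP-sensitive potassium channel. They are neighbours, 16247 bases apart, and both lie on the minus strand. Kcnj8 measured 10.7, 11.3 and 6.67 TPM in replicates 1, 2 and 3. Abcc9 measured 0.715, 1.08 and 2.46 TPM, or an estimated 170, 224 and 469 fragments. Kcnj8 was lowest and Abcc9 highest in replicate 3, so their ratio was 15, 10.4 and 2.71, a mean of 9.38 ± 6.21 and 12.7 without replicate 3. Kcnj8 amounted to 1.97%, 1.85% and 2.13% of the TPM of the lymphatic marker Lyve1, which itself measured 544.8, 610.6 and 313.5 TPM. These ratios were chosen after their values were seen, and which cells held either transcript was not tested.

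Windows at a RefSeq start of each gene of this pair are shown because the neighbours differed between libraries. Neither window holds a CArG box or near match. That of Abcc9 lies at a start inside the gene, so the outermost start of Abcc9 was not searched.
Kcnj8, chr6:142571565-142571864, minus strand: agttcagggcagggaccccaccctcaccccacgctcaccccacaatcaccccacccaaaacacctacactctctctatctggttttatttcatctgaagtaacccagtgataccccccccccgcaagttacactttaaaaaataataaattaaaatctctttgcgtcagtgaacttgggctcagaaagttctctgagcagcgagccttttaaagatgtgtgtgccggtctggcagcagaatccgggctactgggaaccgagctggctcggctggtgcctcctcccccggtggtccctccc
Abcc9, chr6:142702225-142702524, minus strand: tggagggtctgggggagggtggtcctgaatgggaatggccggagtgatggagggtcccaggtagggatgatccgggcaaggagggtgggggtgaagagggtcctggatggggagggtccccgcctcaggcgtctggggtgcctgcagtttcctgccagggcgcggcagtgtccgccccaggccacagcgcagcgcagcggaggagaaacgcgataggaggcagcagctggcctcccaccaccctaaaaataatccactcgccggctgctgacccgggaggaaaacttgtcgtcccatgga

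**Figure D2:**
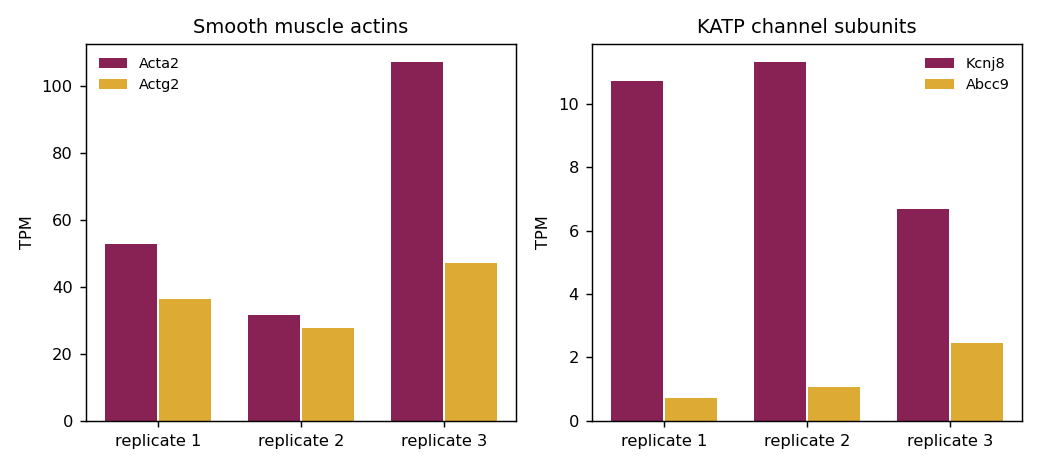
TPM of the smooth muscle actin genes Acta2 and Actg2 (left) and of the channel subunit genes Kcnj8 and Abcc9 (right), with 1 bar per gene and library. Acta2 is above Actg2 in every library and both are highest in replicate 3, while Kcnj8 is lowest, at 6.67 TPM, where Abcc9 is highest, at 2.46 TPM.

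Over the whole list, 30 of 34 members reached a TPM of 1 in all 3 libraries, against 53.4% of all genes of the table. The 4 below it in at least 1 library were Abcc9, Higd1b, Kcnmb1 and Myocd. The median member stood at 15.2, 13.9 and 21.7 TPM (16.9 ± 4.16), and at 14.6 without replicate 3. Together the members took 0.106%, 0.0983% and 0.145% of all TPM. In bulk RNA a lower level can mean fewer cells of a type or less RNA per cell, and these cannot be told apart. In order of mean level, 3 of the 33 neighbouring pairs had ranges that did not overlap: Tpm1 above Csrp1, Cnn1 above Pgm5, and Ldb3 above Pln. For the other 30 pairs the ranges overlapped. Compared within each library, 9 of the 33 pairs kept the same order in all 3. The order of most neighbouring pairs is thus not resolved by these libraries, and members further apart in the list were not compared.

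A pair of subsets of the list were compared within libraries, 17 contractile genes listed as largely restricted to muscle and 7 listed as pericyte genes. The genes of a subset did not all behave alike. Pdlim3 and Pgm5 of the first and Kcnj8 and Vtn of the second were lowest in replicate 3, and Ppp1r14a and Synm of the first were almost level. Which cells held these transcripts was not tested. The median contractile gene exceeded the median pericyte gene by 1.51, 1.70 and 1.64 on the log2(TPM + 1) scale in replicates 1, 2 and 3. The mean difference was 1.61 ± 0.10, a 3.06-fold excess on that scale, and 1.60 without replicate 3. It was above 0 in 3 of 3 libraries and larger than their spread. The 12 fibroblast genes were set against the same contractile genes, since fibroblasts carry podoplanin too. There the difference was 0.11, 0.69 and -0.71, a mean of 0.03 ± 0.70, smaller than the spread between libraries, and 0.40 without replicate 3. Contractile and fibroblast genes thus had similar medians in replicate 1, the contractile genes were higher in replicate 2, and the fibroblast genes were higher in replicate 3. No test is given for these list values, as the members were chosen with earlier results known.

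Spread between libraries divided the members. In 13 of 34 the highest library was at least 2-fold the lowest, against 12% of the 13606 genes with a mean TPM of 1 or more. Of the 31 members that meet this same minimum, it was 10. Abcc9 meets the minimum through replicate 3, since its mean over replicates 1 and 2 was 0.899 TPM. With the minimum set on replicates 1 and 2 alone, a filter chosen after the data were seen, the count was 9 of 30 members, against 11% of genes. At a 1.5-fold range the count was 19 of the 31 members with a mean TPM of 1 or more (22 of all 34), against 31.9% of genes. At 3-fold it was 4 of 31, against 4.67%. These 4 were Acta2, Lmod1, Rgs5 and Abcc9, and Higd1b, Kcnmb1 and Myocd, which miss the minimum, bring it to 7 of 34. Without replicate 3 the count at 2-fold was 0 of 31, against 5.89% of genes for which replicates 1 and 2 differed that much. Over all 34 it was 1, Higd1b, which rests on an estimated 3 and 1 fragments. So nearly all of the 2-fold ranges involved replicate 3.

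The library with the highest value was replicate 3 for 28 of 34 members, or 25 of 31 with a mean TPM of 1 or more, against 41.3% of genes. With the minimum on replicates 1 and 2 alone it was 24 of 30, against 40.1%. It was replicate 1 for Csrp1, Pgm5, Smtn and Vtn, which is 4 of 34 against 17.0%, and replicate 2 for Kcnj8 and Pdlim3, which is 2 of 34 against 41.7%. Scaling the libraries by their median ratio shifted all genes by 0.15, -0.08 and -0.09 on the log2 scale. After it, 24 of 34 members were highest in replicate 3, or 21 of 31 with a mean TPM of 1 or more, against 31.2% of genes. For replicate 1 the count was 10 in either set, against 41.1%, and for replicate 2 it was 0, against 27.7%.

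Replicate 3 lay at least 2-fold above the mean of the other 2 libraries for 12 members, or 9 of 31, against 4.0% of genes. The 9 include Abcc9, which reaches the minimum through that library. With the minimum on replicates 1 and 2 alone the count was 8 of 30, against 2.8% of genes. These 12 were Acta2, Myh11, Myl9, Lmod1, Flna, Synpo2, Pln, Rgs5 and Abcc9, and the low genes Myocd, Kcnmb1 and Higd1b. For replicate 1 the count was 0 of 34 against 0.610% of genes, and for replicate 2 it was 0 of 34 against 0.933%. The fold of replicate 3 over the mean of replicates 1 and 2 was 2.54 for Acta2, 2.66 for Myh11 and 2.71 for Rgs5. It was 1.46 for Actg2, 1.40 for Des, 1.32 for Cnn1 and 1.01 for Ppp1r14a. At the other end it was 0.605 for Kcnj8 and 0.608 for Vtn.

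**Figure D3:**
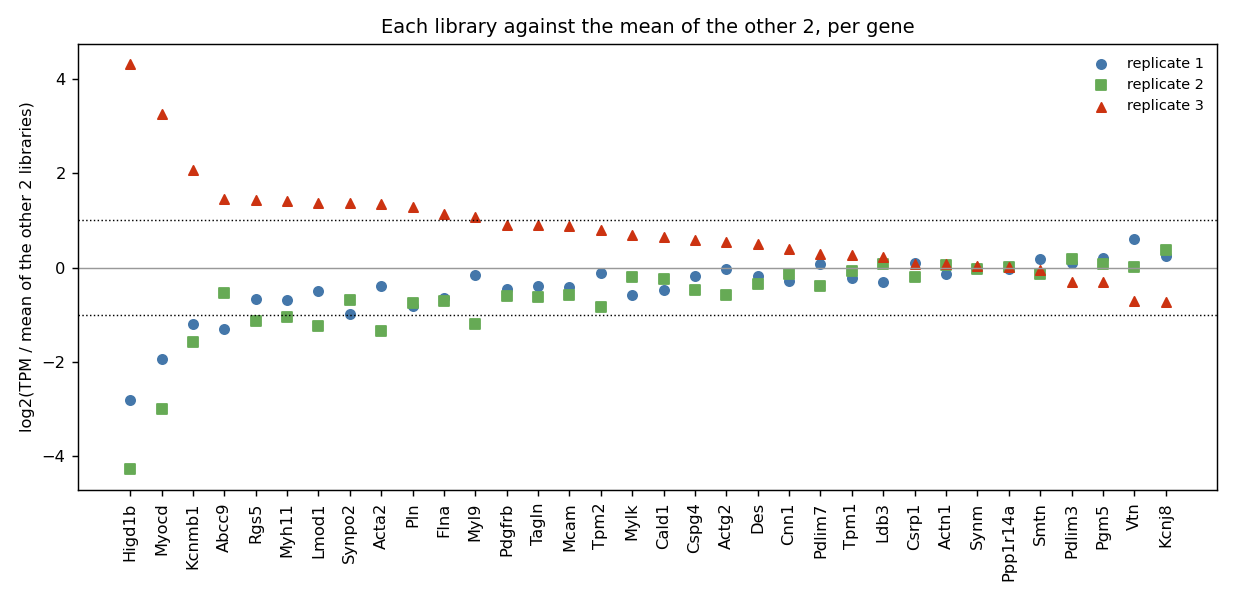
For each gene, log2 of its TPM in a library over the mean of the other 2 libraries, with dotted lines at 2-fold and genes ordered by replicate 3. Replicate 3 exceeds the upper line for the 12 genes on the left, lies near 0 for Ppp1r14a, Synm, Actn1, Csrp1 and Smtn, and is lowest for Kcnj8 and Vtn.

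The same measure was taken for lists of other cell types, over genes with a mean TPM of 1 or more. The median log2 value of replicate 3 over the other 2 libraries was 0.55 for contractile, 0.75 for pericyte and 0.46 for broadly expressed members, against 0.10 for all such genes. Even so, 2 of the 15 contractile and 2 of the 6 pericyte genes counted here were lowest in replicate 3. It was 1.65 for fibroblast, 1.31 for macrophage and 1.16 for blood endothelial genes, -0.74 for lymphatic endothelial genes and 0.17 for epithelial genes. With the minimum on replicates 1 and 2 alone, which leaves out Abcc9, the pericyte value was 0.59, the blood endothelial value 0.99 and that of all genes 0.09. The fibroblast list summed to 225, 152 and 562 TPM and the macrophage list to 248, 173 and 550 TPM in replicates 1, 2 and 3. The blood endothelial list summed to 858.6, 799.6 and 935.8 TPM, with 7 of its 12 genes highest and 4 lowest in replicate 3. None of the genes of these lists was at 0 in all libraries. Members high in replicate 3 were thus high in the same library as the fibroblast and macrophage markers and 7 of the 12 blood endothelial markers. Of the 10 epithelial markers, 5 were highest there. The part of any of these cells in the members' levels was not tested. Acta2 kept a near constant ratio to the fibroblast gene Dcn, at 0.742, 0.653 and 0.691, a ratio chosen after its values were seen. The fold of replicate 3 over the mean of replicates 1 and 2 was 2.54 for Acta2 and 2.60 for Dcn. Over all 12 fibroblast genes this fold ran from 2.46 to 4.40, so the near constancy does not extend to the whole list.

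**Figure D4:**
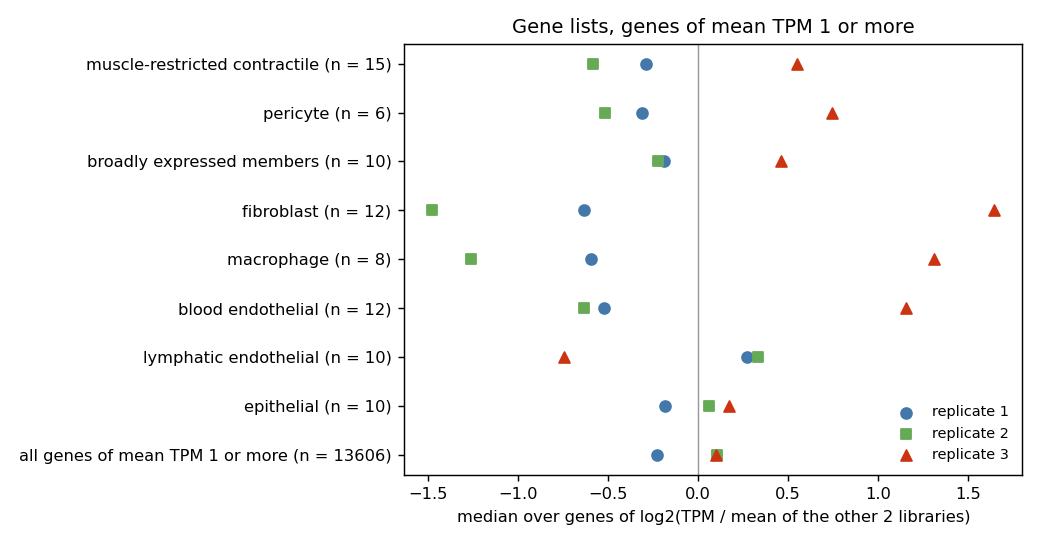
Median over the genes of each list of log2(TPM over the mean of the other 2 libraries), with 1 point per library and the number of genes with a mean TPM of 1 or more in brackets. The median of replicate 3 lies to the right for contractile, pericyte, fibroblast, macrophage and blood endothelial genes and to the left for lymphatic endothelial genes. Single genes of the contractile, pericyte and blood endothelial lists were lowest in replicate 3.

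Other genes of the contractile machinery that are not members were read from fixed lists. The counts of genes that passed 1 TPM in all libraries stand beside 53.4% of all genes of the table. Of 12 transcription genes tied to SRF and to gut mesenchyme, 10 reached a TPM of 1 in all libraries. Fhl1 was the highest at 112 ± 15 TPM, followed by Gata6 at 27.7 ± 5.99, Fhl2 at 21.1 ± 1.49 and Srf at 19.8 ± 2.83. The SRF co-activators MRTF-A and MRTF-B, listed as Mkl1 and Mkl2, stood at 10.6 ± 2.77 and 9.82 ± 3.05 TPM, well above Myocd at 0.319 ± 0.409. The RhoA and myosin phosphatase arm passed in 14 of 14 genes, with Myl6 at 2197 ± 125, Rhoa at 266.8 ± 5.56 and Ppp1cb at 100.4 ± 13.4. Many of these genes serve all cell types. Ppp1r12b, a regulatory subunit of myosin phosphatase found in muscle, varied more, at 1.26, 2.83 and 5.90 TPM in replicates 1, 2 and 3.

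Calcium channel and pump genes passed in 8 of 12, against 53.4% of all genes. They were led by the pump Atp2a2 at 67.3 ± 15.5, Stim1 at 46.1 ± 11.8, Ano1 at 36.5 ± 11.9 and Orai1 at 24.7 ± 1.22 TPM. Cacna1c, the voltage-gated calcium channel through which smooth muscle is excited, stood at 0.547 ± 0.133, and Kcnma1, the channel to which Kcnmb1 belongs, at 3.83 ± 1.09. Receptors that drive contraction passed in 3 of 11 genes, with Ednrb at 6.26 ± 0.689, Ptger3 at 2.26 ± 0.615, Chrm3 at 2.26 ± 0.287 and Ednra at 2.15 ± 2.06. Ednra measured 1.07, 0.841 and 4.52 TPM, high in replicate 3 like Acta2.

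Of 20 further mural genes, 16 passed, with Hspb1 at 85.7 ± 11.7, Nr2f2 at 29.6 ± 3.96, Gja4 at 22.2 ± 5.52 and Itga7 at 11 ± 2.48 TPM, several of which endothelium expresses as well. Notch3, a receptor of mural cells, measured 1.13, 1.04 and 5.64 TPM. Striated muscle was the control, and 1 of its 13 listed genes passed, Ckm at 1.99 ± 0.891. The next were Tnnt2 at 0.890 ± 0.308, Tnni2 at 0.656 ± 0.341 and Actn2 at 0.535 ± 0.279. Myh1, Myh4 and Myod1 were listed at 0 in all libraries. The striated muscle actins Acta1 and Actc1 were not on this list. Acta1 measured 7.36, 10.5 and 4.71 TPM in replicates 1, 2 and 3, so it passed. Actc1 stood at 0.590 ± 0.617 TPM.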

How the data were processed

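RNA-seq of 3 libraries of sorted lymphatic endothelial cells was analysed from 1 table per library. Values are TPM per gene, computed by the authors and deposited with Entrez IDs and symbols; they summed to 999939, 999907 and 999896. Per the submitters' processing notes, mm10, Cell Ranger 6.0.1 and HTSeq were used; how TPM was derived, the aligner and the annotation are not given in the sources used here. RefSeq (GRCm38.p6) held 24045 of the 24091 IDs and was the source of coordinates and promoter windows.

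Members and gene lists were chosen with earlier results of these data known. The rule names all members, the 4 highest genes of each other list and cell type genes at 0; for fibroblast, endothelial, epithelial and macrophage lists, sums and medians are given with Lyve1 and Dcn alone by value. A few genes that the rule covers are not given in this text. Myh9, Myh10, Mkl1, Mkl2, Ppp1r12b, Cacna1c, Kcnma1, Notch3, Prkg1, Mrvi1 and the ratios other than Actg2 to Acta2 were chosen after their values were seen. With 1 group there was no test between conditions, and 3 libraries cannot give an exact sign-flip p below 0.25. Differences of lists used log2(TPM + 1); folds between libraries used TPM with no pseudocount. The thresholds were 1 TPM, met in each library, and a 2-fold difference.

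The fragments behind 1 TPM were estimated from 7003 single-transcript genes longer than 1000 bases. In the 3 libraries 62.0%, 64.0% and 63.6% of their low values lay within 0.15 of a whole fragment. By chance 30% would for a step set beforehand. The step and the length correction were fitted to these same values, so the shares are not a test of the steps. No counting interval was derived. Stretches of 50 bases were compared among GENCODE M21 transcripts. Functions were tested on simulated data. Alternatives were other thresholds, pseudocounts and folds, means for medians, scaling without 86 ribosomal protein genes or by median ratios, and leaving out each replicate. A minimum set on replicates 1 and 2 alone was added after seeing the data. Python 3.11.15, numpy 2.4.6, pandas 2.3.3 and matplotlib 3.10.9 were used.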

Additional observations from a re-analysis of the deposited data

How the results depend on the processing

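Of 66 alternatives over 13 results, 50 left the value within its spread or the count within 1.5 times. Rescaling without ribosomal protein genes moved the median member to 21.1 TPM and the members' share to 0.145%. The contractile minus pericyte difference was 1.81 with a pseudocount of 0.1, 1.22 with means over genes and 1.45 over genes with a mean TPM of 1 or more, and 1.57 to 1.67 leaving out each replicate. The contractile minus fibroblast difference became -0.42 with means over genes, and spanned -0.30 to 0.40 leaving out each replicate (-0.01 without replicate 1), so its direction is not set by these data. Members with a range of at least 2-fold numbered 13, against 22 at 1.5-fold and 7 at 3-fold, and 1 to 13 leaving out each replicate, the 1 being without replicate 3. Members highest in replicate 1 numbered 7 and 10, and in replicate 2 1 and 0, after scaling without ribosomal protein genes and by median ratios. Members at least 2-fold above the other libraries in replicate 3 numbered 7 with folds of TPM + 1, as low genes then fall short. Counts of the highest library were not recomputed with a replicate left out. No paired analysis was possible because there is 1 group. Low members rest on few fragments, which limits Higd1b and Myocd most.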

Other observations

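Genes that relax smooth muscle through cyclic GMP and cyclic AMP were read beside the contractile genes. The subunit genes of soluble guanylate cyclase, the nitric oxide receptor, listed under the older symbols Gucy1a3 and Gucy1b3, stood at 42.8 ± 11.4 and 42.5 ± 11.1 TPM. Gucy1a3 measured 47.7, 50.9 and 29.8 TPM in replicates 1, 2 and 3, and Gucy1b3 44.8, 52.3 and 30.4 TPM. Both were lowest in replicate 3, where Acta2 and Myh11 were highest. Pde5a, which breaks down cyclic GMP, stood at 17.9 ± 6.24 and Pde3a at 8.41 ± 4.74 TPM. Prkg1, the cyclic GMP-dependent kinase, was at 0.732 ± 0.192 TPM. Its partner Mrvi1 measured 0.975, 0.695 and 3.67 TPM, high in replicate 3. Of the 8 genes of this list, 5 reached a TPM of 1 in all libraries, against 53.4% of all genes of the table.

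Interstitial cells of Cajal, the pacemaker cells of gut muscle, and enteric neurons and glia lie close to the muscle coats. Of 7 genes listed for the former, 5 passed in all libraries, against 53.4% of all genes. Thbs4 stood at 86.8 ± 9.06, Ano1 at 36.5 ± 11.9, Kit at 19.2 ± 2.77 and Elovl6 at 12.4 ± 4.04 TPM. Epithelium and other cells also express some of these genes, so their levels do not show such cells. Among neuron and glia genes, Uchl1 stood at 2.39 ± 1.38, S100b at 1.42 ± 0.757 and Gfap at 1.31 ± 0.423 TPM.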
